A study of Mus musculus with 2 samples.

Results

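The genes described here are the mitochondrial solute carriers of family 25 with the uncoupling proteins, which belong to the same family. They were taken from the deposited table by symbol (Slc25a followed by a number, or Ucp1, Ucp2 or Ucp3), which gave 50 of 23477 genes, and for each gene the transcript row with the most reads was kept. The cells were eosinophils, granulocytes resident in the healthy intestine, which flow cytometry isolated from enzyme-digested colons of naive wild-type C57BL6 mice. The 1 group of 2 samples was sequenced with CEL-Seq, a method that reads tags near the 3′ end of messenger RNA, with 3 technical replicates per sample. Neither the sort gate nor the age or number of the mice is stated in the labels, and the group has no treatment, mutant or second tissue to compare with.

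Family 25 carriers are nuclear-encoded proteins, most of which sit in the inner mitochondrial membrane and exchange metabolites, nucleotides, cofactors and metal ions between the cytosol and the mitochondrial matrix. The ADP/ATP and phosphate carriers supply the ATP synthase, other members feed the citrate cycle and the shuttles that bring reducing equivalents into mitochondria, and the uncoupling proteins carry protons or metabolites across the same membrane. Mature eosinophils are short-lived granulocytes that take energy from both glycolysis and mitochondria.

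The table gives 1 value per transcript, the authors' mean over the libraries, as a read total and as RPKM, the reads divided by the transcript length in kilobases and by the library's reads in units of 1000000. Values of the single samples were not analysed here, and therefore no SD, n or test accompanies a value. The intervals in parentheses are exact 95% Poisson intervals of the reads summed over 6 libraries, converted to RPKM by the gene's own ratio of RPKM to reads, and cover counting error only. The kept rows of all genes held 7692119 reads, and the carriers held 30196 of them, or 0.393%. Where a gene had no read, an upper limit of 3 reads was used, which is 0.390 reads per 1000000 reads on genes (RPM). In such sorted bulk samples, fewer cells of a type and less RNA per cell cannot be told apart.

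The label was checked against the cell markers. Of 7 eosinophil markers 6 were at an RPKM of 1 or above. The median of the 7 was 77.9, their summed RPKM was 665, and the peroxidase gene Epx stood at 0.265. Markers of other cells were present as well, with their summed RPKM at 258 for 10 epithelial genes, 138 for 5 goblet genes, 134 for 5 fibroblast genes, 147 for 6 macrophage genes, 51.6 for 4 smooth muscle genes and 35.6 for 7 neutrophil genes. The 10 red cell genes summed to 2024, above the eosinophil sum, but 3 of their read totals are each listed by a pair of genes. All epithelial, goblet and smooth muscle markers reached an RPKM of 1, as did 4 of the fibroblast, 5 of the macrophage and 2 of the neutrophil markers. Mertk of the macrophage list and Elane and Mpo of the neutrophil list were listed at 0. The part of these cells in the carrier values was not tested.

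Of the 50 carriers, 24 reached an RPKM of 1 (48.0%, against 31.0% of all genes), 20 lay between 0 and 1, and 6 were listed at 0. Thus 44 (88.0%) were above 0, against 69.0% of all genes. The same 31.0% of all genes is the share to set beside every count of list genes at an RPKM of 1 in this text. An RPKM of 5 was reached by 17 carriers, against 14.1% of all genes, and an RPKM of 10 by 6 carriers (12.0%, against 8.76% of all genes). With the RPKM of all genes rescaled to a sum of 1000000, 31 carriers reached 1, against 47.4% of all genes. The median over all 50 was 0.681, against 0.186 over all genes, and the mean of log2(RPKM + 1) was 1.67. By reads without length, 34 carriers (68.0%) reached an RPM of 1, against 50.9% of all genes. Solute carriers of other families had 74 of 284 genes (26.1%) at an RPKM of 1 and a median of 0.141. Genes of oxidative phosphorylation, whose subunits share the inner membrane with the carriers, had 80 of 92 (87.0%) and a median of 10.4. This last set was taken by the first letters of subunit symbols, which can also take in assembly factors. CEL-Seq tags do not grow in number with transcript length, so RPM is given beside RPKM. The median RPM was 1.04 for the other solute carriers, 5.98 for the carriers and 24.5 for the oxidative phosphorylation genes. Their shares at an RPM of 1 were 51.8%, 68.0% and 91.3%. The carriers therefore lay between these 2 gene sets by RPKM and by RPM, with no test, since genes are not replicates.

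**Figure D1:**
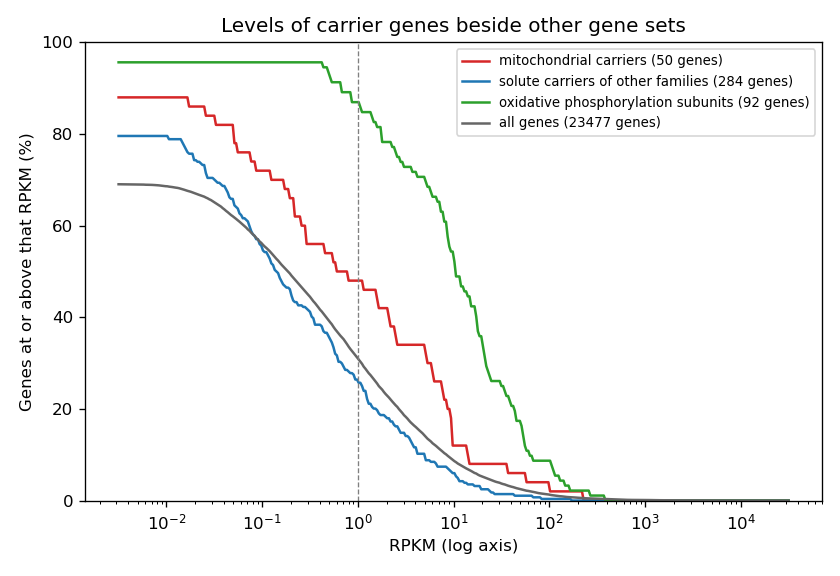
Percent of genes (vertical axis) at or above each RPKM (horizontal log axis). The sets are the 50 mitochondrial carriers, 284 solute carriers of other families, 92 genes with symbols of oxidative phosphorylation subunits, and all 23477 genes. At the dashed line, an RPKM of 1, the curves stand at 48.0%, 26.1%, 87.0% and 31.0%.

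The family was led by 4 genes, whose promoters are printed here because they carry most of the signal, together with that of Ucp1, the brown fat uncoupling protein, which was listed at 0. The sequences are from RefSeq (GRCm38.p6, the assembly of mm10), 250 bases before to 50 bases after the annotated start, 5′ to 3′ on the gene's strand. Capitals mark matches on either strand to 5 short motifs. These are the ETS core (CCGGAAG), the GC box (GGGCGG), the CCAAT box (CCAAT), the TATA motif (TATAA) and the E-box (CACGTG).
Ucp2 promoter (chr7:100493108-100493407, plus strand): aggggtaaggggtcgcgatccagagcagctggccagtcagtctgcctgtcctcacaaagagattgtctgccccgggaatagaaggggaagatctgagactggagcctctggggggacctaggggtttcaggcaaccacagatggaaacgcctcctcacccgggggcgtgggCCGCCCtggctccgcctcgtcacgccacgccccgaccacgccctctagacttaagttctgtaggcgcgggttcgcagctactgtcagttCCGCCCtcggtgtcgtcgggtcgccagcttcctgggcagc
Slc25a39 promoter (chr11:102407468-102407767, minus strand): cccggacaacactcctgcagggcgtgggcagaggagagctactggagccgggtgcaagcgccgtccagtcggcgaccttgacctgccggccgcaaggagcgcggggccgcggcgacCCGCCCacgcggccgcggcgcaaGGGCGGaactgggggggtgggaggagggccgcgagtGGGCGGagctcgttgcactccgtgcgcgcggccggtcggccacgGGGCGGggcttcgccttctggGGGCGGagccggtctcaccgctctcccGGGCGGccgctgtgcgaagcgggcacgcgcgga
Slc25a28 promoter (chr19:43674832-43675131, minus strand): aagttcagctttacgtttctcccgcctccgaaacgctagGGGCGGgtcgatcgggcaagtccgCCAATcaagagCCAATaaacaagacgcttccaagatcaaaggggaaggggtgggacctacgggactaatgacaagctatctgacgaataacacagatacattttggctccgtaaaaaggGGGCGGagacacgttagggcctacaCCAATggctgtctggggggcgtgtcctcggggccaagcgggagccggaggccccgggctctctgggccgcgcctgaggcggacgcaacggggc
Slc25a3 promoter (chr10:91123918-91124217, minus strand): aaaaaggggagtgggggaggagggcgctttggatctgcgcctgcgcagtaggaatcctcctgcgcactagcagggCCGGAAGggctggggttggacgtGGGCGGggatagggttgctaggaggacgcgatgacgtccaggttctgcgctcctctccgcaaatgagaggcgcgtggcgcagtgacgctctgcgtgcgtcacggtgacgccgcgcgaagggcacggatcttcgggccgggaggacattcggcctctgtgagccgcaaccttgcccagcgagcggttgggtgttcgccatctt
Ucp1 promoter (chr8:83290098-83290397, plus strand): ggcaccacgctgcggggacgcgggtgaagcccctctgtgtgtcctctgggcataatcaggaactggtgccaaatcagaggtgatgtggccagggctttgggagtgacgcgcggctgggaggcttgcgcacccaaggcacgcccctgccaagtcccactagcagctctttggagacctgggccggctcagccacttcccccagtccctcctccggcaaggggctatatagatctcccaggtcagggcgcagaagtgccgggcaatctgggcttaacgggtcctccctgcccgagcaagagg

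The capitals in the Ucp2 promoter are 2 GC boxes, those in Slc25a39 are 6 GC boxes, and those in Slc25a28 are 2 GC boxes and 3 CCAAT boxes. Slc25a3 holds 1 ETS core and 1 GC box, and Ucp1 holds no exact match to the 5. Only the exact letters were searched, so variants of a motif, such as the tatata in the Ucp1 promoter, are not counted. A match is a description of the letters and does not show that a factor binds there. The table of promoters had an entry for 39 of the 50 carriers. The GC box was in 18 of 19 promoters of carriers at an RPKM of 1 or more and in 13 of 20 below it, against 35.7% of all 32851 promoters. An ETS core was in 6 of 19 (Slc25a3, Slc25a4, Slc25a17, Slc25a20, Slc25a25 and Slc25a38) and in 1 of 20 (Slc25a54), against 8.86% of all promoters. The CCAAT box was in 8 of 19 and 9 of 20 against 37.4%, and the TATA motif in 2 of 19 and 3 of 20 against 24.9%. The E-box was in 2 of 19 and 3 of 20 against 7.15%. These shares come from 1 promoter per carrier and from all promoters of the table, some of which belong to the same gene. The shares for all genes at an RPKM of 1 or more were not computed, so a difference particular to carriers is not shown. The median number of CG pairs per promoter was 21 in the higher set, 15 in the lower and 7 over all promoters.

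Ucp2, the uncoupling protein found in many immune cells, was the highest carrier, with an RPKM of 222 (218 to 225) from 18680 reads. It ranked 127 of all genes by RPKM and 49 by reads. Ucp2 alone held 61.9% (exact binomial interval 61.3% to 62.4%) of all carrier reads and 40.6% of their summed RPKM. It lies on chromosome 7 from 100493345 to 100502173 on the plus strand (mm10 coordinates as in the table), and this model ends 2544 bases past the RefSeq gene end and 153 bases past the farthest GENCODE end. Where the reads fall within the model is not given in the table. Ucp2 also had the most mean reads per unit of RPKM of all carriers with reads, 14.1 against a median of 7.32, so dividing by length lowered it more than any other.

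The other members of the uncoupling group were near or at 0. Ucp3, the uncoupling protein of skeletal muscle, had 10 reads and an RPKM of 0.172 (0.0826 to 0.317). Its gene lies 6.91 kb before Ucp2 on the same strand. Of the relatives known from the nervous system and kidney, Slc25a27 had 8 reads (RPKM 0.193) and Slc25a30 had 6 (0.256), while Slc25a14 and Ucp1 were listed at 0. The Slc25a30 model ends 4465 bases before the RefSeq gene end and 1882 before the farthest GENCODE end. That of Slc25a27 ends 4161 bases before the RefSeq end but within 9 bases of the GENCODE end. Tags past the end of a model would lie outside it. Cidea and Adipoq, markers of fat, and Ckm of muscle were also listed at 0. The other muscle gene of that list, Acta1, had 18 reads (RPKM 0.715). Ucp2 thus held nearly all of this group's reads, 18680 of 18704, and its RPKM was 1287 (700 to 2685) times that of Ucp3.

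**Figure D2:**
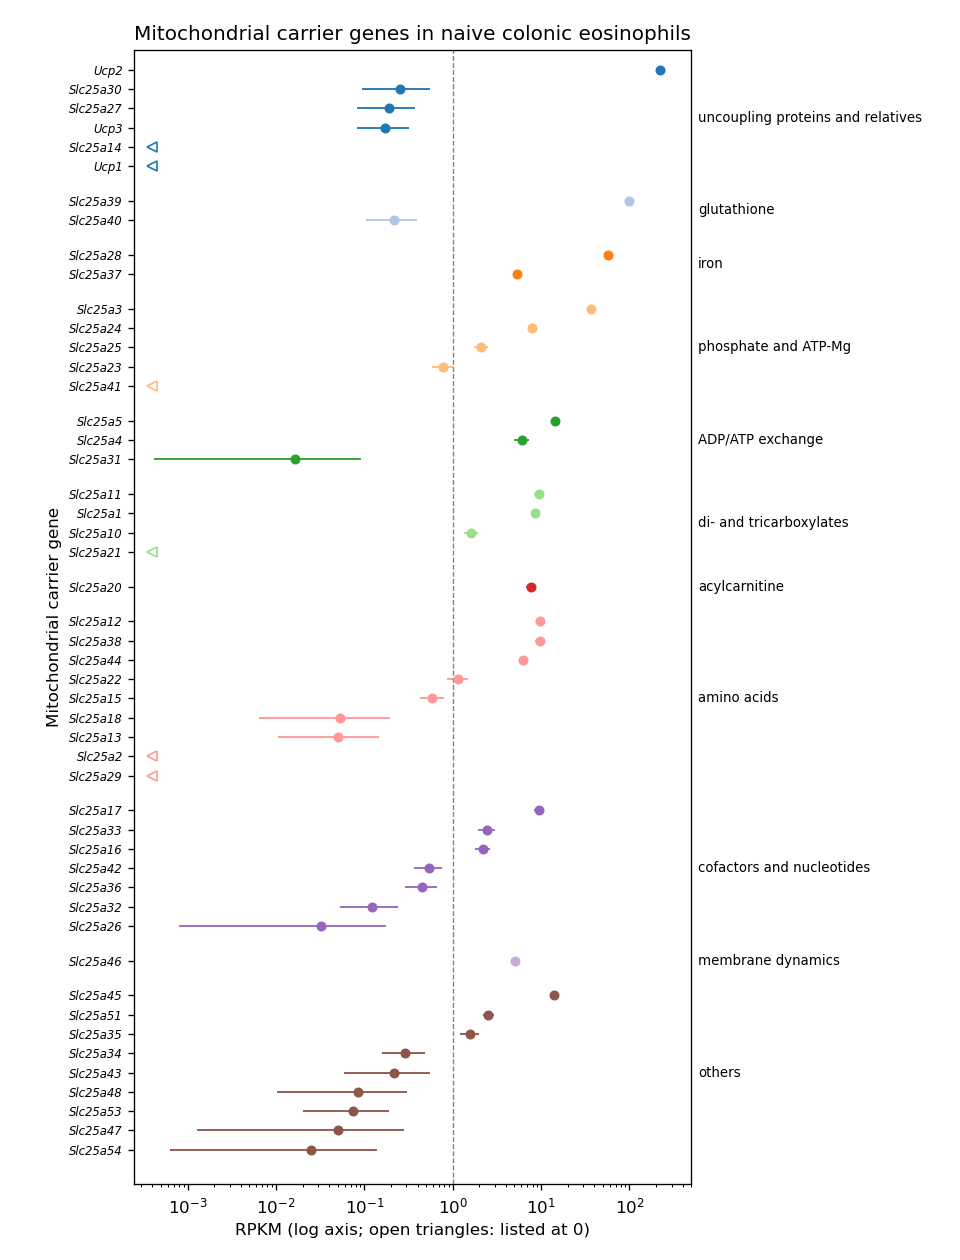
RPKM (horizontal log axis) of 49 of the 50 carrier genes, grouped by transported substrate, with exact 95% Poisson intervals of the reads as bars. Open triangles at the left edge are the 6 genes listed at 0, and the dashed line is an RPKM of 1, which 24 genes reached. Ucp2 (222), Slc25a39 (99.1), Slc25a28 (57.0) and Slc25a3 (37.0) stand to the right of all others.

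Slc25a39, which brings glutathione into mitochondria, was second with an RPKM of 99.1 (95.8 to 102) from 3427 reads. It lies on chromosome 11 from 102402976 to 102407517 on the minus strand. Its close relative Slc25a40 had 10 reads and an RPKM of 0.215 (0.103 to 0.396), which puts Slc25a39 460 (250 to 960) times higher. Among enzymes that make or recycle glutathione, the reductase gene Gsr had an RPKM of 44.5, the ligase subunits Gclm and Gclc had 5.14 and 3.83, and the synthetase gene Gss had 0.663. So 3 of these 4 genes reached an RPKM of 1.

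Both iron importers, the mitoferrins, were detected. Slc25a28 (mitoferrin 2, the form found in most tissues) had an RPKM of 57.0 (54.4 to 59.7) from 1794 reads, on chromosome 19 from 43663801 to 43674881 on the minus strand. Slc25a37 (mitoferrin 1, the form needed by developing red cells) had 5.30 (4.79 to 5.85) from 393 reads. The ratio was 10.8 (9.64 to 12.0) by RPKM and 4.56 (4.09 to 5.10) by reads, since the Slc25a37 model takes 12.4 mean reads per unit of RPKM and that of Slc25a28 takes 5.25.

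The imported iron is used for heme and iron-sulfur clusters, and 7 of 9 genes of these pathways were at an RPKM of 1 or above (median 5.20). Alas1, the first enzyme of heme synthesis in most cells, had 39.4, Ppox 17.8, the cysteine desulfurase Nfs1 14.8 and the ferrochelatase Fech 6.76. The scaffold Iscu (0.248) and Cpox (0.368) were below 1. Slc25a38, which brings in the glycine that Alas enzymes use, had an RPKM of 9.70 (8.56 to 10.9), with a model that ends 1774 bases before the RefSeq gene end and 185 before the GENCODE end. The red cell enzyme Alas2 had 2.82. Red cell markers are given beside these carriers because the tissue holds blood. Globin rows reached 567 (Hbb-b1), and 7 of 10 red cell markers reached an RPKM of 1, but Klf1 and Slc4a1 had 2 and 3 reads. The 6 globin rows are 3 pairs of genes with the same reads (Hbb-b1 and Hbb-bs, Hbb-b2 and Hbb-bt, Hba-a1 and Hba-a2), so the 7 markers hold 4 distinct read totals. The part of red cell RNA in the carrier values was not tested.

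Slc25a3, the phosphate carrier that supplies the ATP synthase and also carries copper, had an RPKM of 37.0 (34.6 to 39.4) from 917 reads, on chromosome 10 from 91116578 to 91123963 on the minus strand. The carriers that exchange ATP-Mg for phosphate were lower and uneven. Slc25a24 had 7.92 (7.21 to 8.69), Slc25a25 2.10 (1.76 to 2.48) and Slc25a23 0.772 (0.576 to 1.01), and these 3 intervals do not overlap. Slc25a41, whose gene lies 2.06 kb from Slc25a23 on the same strand, was listed at 0.

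Of the ADP/ATP carriers, which exchange the nucleotides that the synthase consumes and makes, Slc25a5 had an RPKM of 14.4 (12.9 to 16.1) and Slc25a4, the form of heart and muscle, 6.03 (4.99 to 7.22). Their ratio was 2.39 (1.94 to 2.98). The testis form Slc25a31 had 1 read. Of the last 500 bases of Slc25a5, 43.8% of words of 35 bases are also in transcripts of other genes, among them its processed pseudogenes, so its value is uncertain. For no other carrier was this share above 3.43%, and for 45 of 50 it was 0%. By reads, Slc25a5 ranked 10 and Slc25a4 20 in the family, below their ranks of 5 and 15 by RPKM.

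Among the carriers of di- and tricarboxylates, the oxoglutarate-malate carrier Slc25a11 had an RPKM of 9.50 (8.42 to 10.7) and the citrate carrier Slc25a1 8.58 (7.65 to 9.60), with overlapping intervals. The dicarboxylate carrier Slc25a10 had 1.63 (1.36 to 1.94), and the oxodicarboxylate carrier Slc25a21 was listed at 0. Citrate that Slc25a1 exports is cleaved by Acly, which had an RPKM of 15.2, whereas the enzymes that build fatty acids from it, Acaca and Fasn, had 0.227 and 0.404. In this list of 7 genes, 3 reached an RPKM of 1 (42.9%, against 31.0% of all genes), among them the citrate synthase Cs (25.6) and Acly.

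Slc25a12 and Slc25a13 are the aspartate-glutamate carriers of the malate-aspartate shuttle, the latter known from liver. Slc25a12 had an RPKM of 9.74 (8.90 to 10.6) from 493 reads and Slc25a13 0.0507 (0.0105 to 0.148) from 3 reads, a ratio of 192 (65.3 to 934). Slc25a13 has 2 rows with equal reads, and their RPKM summed to 0.101. All 4 soluble enzymes of the shuttle reached an RPKM of 1, with Mdh2 at 238, Mdh1 at 20.0, Got2 at 11.0 and Got1 at 2.68. The 3′ end used in the table for Slc25a12 lies 25 bases before the RefSeq end and 3232 before the farthest GENCODE end.

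The remaining amino acid carriers ranged from an RPKM of 6.20 down to 0. Slc25a44, a carrier of branched-chain amino acids, had an RPKM of 6.20 (5.56 to 6.90), with all its reads on 1 non-coding row of the 4 rows that share its 3′ end. The glutamate carrier Slc25a22 had 1.14 (0.858 to 1.49) and its relative Slc25a18 had 2 reads, a ratio of 21.2 (5.60 to 180). The table lists 2 rows with equal reads for Slc25a22, and their RPKM summed to 2.18. The ornithine carrier Slc25a15 had 0.590 (0.422 to 0.804) from 40 reads. The other ornithine carrier Slc25a2 and the basic amino acid carrier Slc25a29 were listed at 0. The acylcarnitine carrier Slc25a20, which brings fatty acids in for oxidation, had 7.67 (6.79 to 8.62). Beside it, Cpt1a of the outer membrane had 7.56 and Cpt2 of the inner membrane 0.299, and 6 of 9 genes of the carnitine shuttle and fatty acid oxidation reached an RPKM of 1, led by Acadl at 37.0.

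**Figure D3:**
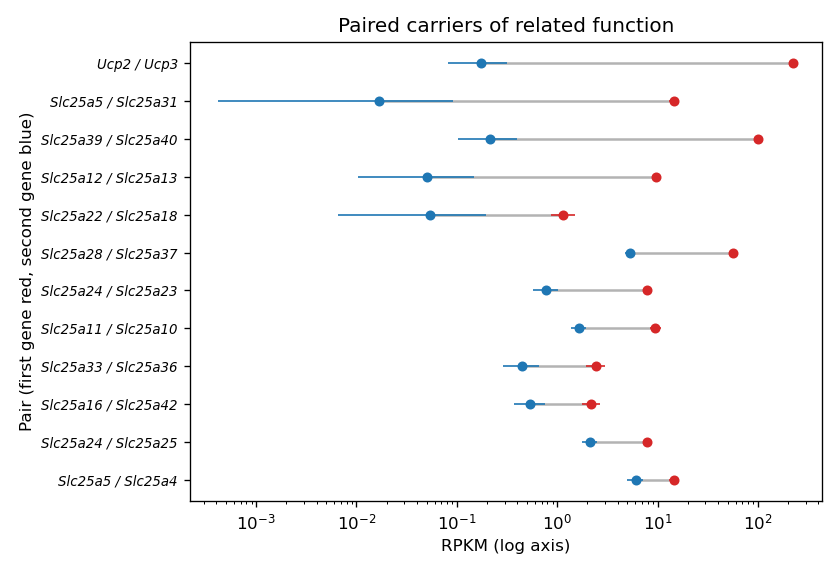
RPKM (horizontal log axis) of the first (red) and second (blue) gene of 12 pairs of carriers with related function, with exact 95% Poisson intervals. By the plotted values, the widest gap is between Ucp2 (222) and Ucp3 (0.172), and the narrowest between Slc25a5 (14.4) and Slc25a4 (6.03). The ratio of Slc25a5 to Slc25a31, which had 1 read, was 868 (155 to 34391.5), so which gap is widest is not settled.

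Of the 8 carriers of cofactors and nucleotides, 3 reached an RPKM of 1 (37.5%, against 31.0% of all genes). Slc25a17, a peroxisomal carrier of coenzyme A and related cofactors, led with 9.36 (8.22 to 10.6). The pyrimidine nucleotide carriers Slc25a33 and Slc25a36 had 2.44 (1.94 to 3.02) and 0.447 (0.289 to 0.659). The coenzyme A carriers Slc25a16 and Slc25a42 had 2.18 (1.78 to 2.65) and 0.537 (0.367 to 0.757). The folate and flavin carrier Slc25a32 had 0.122 from 8 reads, and the S-adenosylmethionine carrier Slc25a26 0.0320 from 1. In the one-carbon list, only Shmt2 (4.34) of 4 genes (25%) reached an RPKM of 1, with Mthfd2 at 0.591. The models of Slc25a36 and Slc25a32 end 2050 and 2960 bases before the farthest GENCODE end, and 1730 and 2961 before the RefSeq end.

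Slc25a46, an outer membrane relative involved in mitochondrial fission, had an RPKM of 5.06 (4.59 to 5.57) and moved from rank 17 in the family by RPKM to rank 8 by reads. Of 6 genes of mitochondrial fission and fusion, 4 reached an RPKM of 1. The fission factors Mff and Fis1 stood at 98.3 and 76.6, but the fission GTPase gene Dnm1l at 0.991, and the fusion genes Mfn2, Opa1 and Mfn1 at 3.77, 3.64 and 0.375. Of the carriers outside these groups, Slc25a45 was the highest at 14.1 (12.8 to 15.4). Slc25a51, which imports NAD, had 2.54 (2.19 to 2.92) and Slc25a35 1.55 (1.20 to 1.98). The GENCODE ends of Slc25a35 and Slc25a48 lie 1850 and 1876 bases past those of the table, and the RefSeq ends 1 and 4 bases past them. Slc25a34, Slc25a43, Slc25a53, Slc25a48, Slc25a47 and Slc25a54 had 14, 4, 4, 2, 1 and 1 reads. The gene of Slc25a54 lies 6.57 kb from Slc25a24, which had 456 reads, and that of Slc25a43 lies 18.3 kb from Slc25a5, which had 336.

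**Figure D4:**
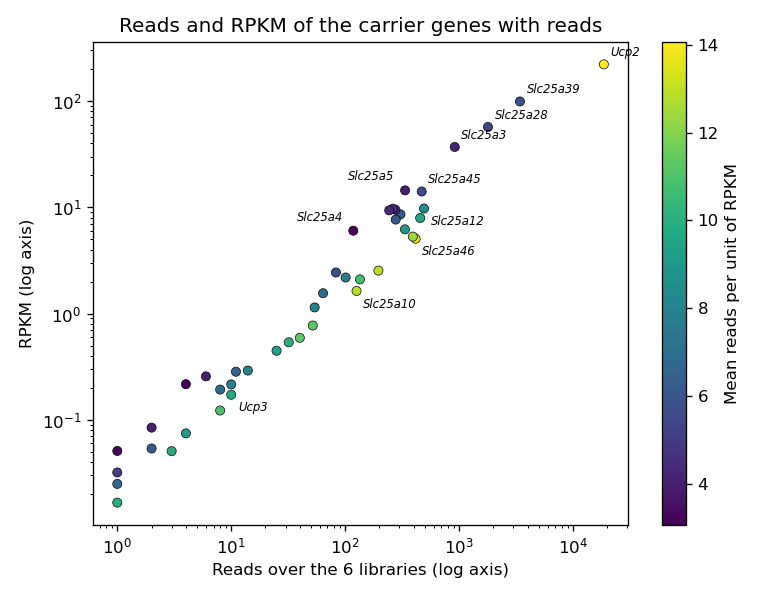
Reads over the 6 libraries (horizontal log axis) and RPKM (vertical log axis) of the 44 carriers with reads, coloured by mean reads per unit of RPKM, which grows with model length. Ucp2, Slc25a39, Slc25a28 and Slc25a3 hold the first 4 places on both axes, and 4 carriers rest on 1 read.

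By reads, the 4 leading carriers held 82.2% of the family's reads, and by RPKM 75.9% of its summed RPKM. In total 7 carriers had 1 to 3 reads, which is at or under the limit used for a count of 0, so their levels were not told apart from it at this depth. For the 6 carriers listed at 0, the 3′ end used in the table lay within 5 bases of the GENCODE and RefSeq ends. Eno1, a glycolytic gene used by nearly all cells, likewise had no reads in the table, and Gapdh, another such gene, had 20 reads and an RPKM of 0.781. Actb, looked up beside them, had 73645 reads and an RPKM of 1788.5. Given Eno1 and Gapdh, zeros and low values describe the listing and do not show that a transcript was absent or rare. Whether the carriers at 0 resemble Eno1 in this was not tested.

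Carriers are inserted into the inner membrane by the TIM22 complex after passing the outer membrane. Of 10 genes of this route 7 were at an RPKM of 1 or above (median 3.63). Timm10b had 9.99, Tomm20 7.53, Tomm22 6.12 and Timm10 5.20, and the channel gene Timm22 had 2.90. Below an RPKM of 1 were Tomm70a (0.873), Timm9 (0.391) and the TIM22 subunit gene Agk, which had 3 reads. Carrier relatives of the outer membrane, outside the symbol rule, had an RPKM of 25.4 (Mtch1) and 2.22 (Mtch2). Among 18 genes of other mitochondrial transport, 14 reached an RPKM of 1 (median 1.86). The outer membrane channels Vdac2, Vdac1 and Vdac3 stood at 149, 69.5 and 1.08. The calcium uniporter subunit Smdt1 had 37.8 and the pore gene Mcu 4.58, and the pyruvate carrier subunits Mpc1 and Mpc2 had 13.0 and 2.19. Only Ucp2 among the carriers was above Vdac2.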

How the data were processed

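CEL-Seq libraries of sorted colonic eosinophils from naive mice were analysed (1 group, 2 samples, 3 technical replicates each, per the labels' protocols). Per the submitters' processing notes, STAR 2.4.2a and DESeq were used with build mm10. Of the read counter, strand use, treatment of reads with several alignments and transcript lengths, none is stated in the labels. The authors deposited 31295 transcript rows with a mean read total and an RPKM, the latter reads per kilobase per 1000000 reads computed by the authors per the file headers. All read totals times 6 are whole within 0.0001, so reads are the read total times 6. There were 0 columns of other samples.

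One row per symbol was kept, the one with the most reads (for ties, the first), and RPM was computed on the kept rows. The members, the lists and the groups by role were chosen with earlier results of these data known, and the pairs and the printed promoters were chosen after the values were seen. Members are named, and of other genes up to 4 per list and those at 0, plus a few chosen after their values were seen (Epx, Gss, Cpox, Iscu, Acaca, Fasn, Cpt2, Mthfd2, Timm22, Timm9, Tomm70a, Agk, Dnm1l, Mfn1, Vdac3, Mcu, Mpc1, Mpc2, Gapdh, Actb, Alas2, Klf1, Slc4a1). A few genes that this takes in are left unnamed and not reported here. Ahsp and Mcart2 were not matched, and Mcart1 and Mcart6 are older names of Slc25a51 and Slc25a53. The T and B cell and mast cell lists reached an RPKM of 1 with 1 of 4 and 2 of 4 genes, and the list of fat, muscle and testis markers 0 of 5, with Acta1 at 0.715 and Prm1 at 0. Shared words, 3′ ends and promoters used GENCODE M21 and RefSeq, both on the assembly of mm10; 40.8% of matched rows had the same start as GENCODE and 1.95% were off by 1 base, so coordinates are given as deposited. Intervals are at 95%. Software was Python 3.11.15 with matplotlib 3.10.9, numpy 2.4.6, scipy 1.17.1 and pandas 2.3.3. On simulated Poisson counts the Poisson intervals covered 96.1% of 16209 known values, which checks the calculation only. Spread between samples or libraries was not simulated.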

Additional observations from a re-analysis of the deposited data

How the results depend on the processing

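The count of 24 carriers at an RPKM of 1 became 44 for any RPKM above 0. It was 17 at an RPKM of 5 (14.1% of all genes), 34 at an RPM of 1, 31 on RPKM rescaled to a sum of 1000000 (47.4% of all genes), 23 without Slc25a5, and 24 with the transcript of highest RPKM. The median RPKM of 0.681 became 1.59 over carriers above 0, and was 0.590 without Ucp2 or without Slc25a5. The mean of log2(RPKM + 1), 1.67, became 0.29 with a pseudocount of 0.1, 1.90 over carriers above 0 and 1.55 without Ucp2. The share of the highest carrier, 61.9% of reads, became 40.6% of summed RPKM and 62.6% of reads without Slc25a5. No carrier had 50% or more shared words, so that setting left all values as they were. Of 100 values of single carriers with another choice of transcript row, 2 left their counting interval, among them Slc25a22 with an RPKM of 2.18 summed over rows, as rows with equal reads were added. The alternatives without Slc25a5 and without Ucp2 were chosen after seeing the data. Leaving out each sample was not run, and no paired analysis was possible because the table does not separate the samples. Depth limits the 7 carriers with 1 to 3 reads.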

Other observations

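The carriers with several transcript rows show how the table lists reads. Of 9 such genes, 4 had all reads on 1 row, 3 (among them Slc25a13 and Slc25a22) had equal reads on 2 rows, and 2 (Slc25a14 and Slc25a21) had none on any row. In all, 8 carriers have a table model that ends at least 1000 bases before the GENCODE or RefSeq end. They range from Slc25a48 with 2 reads, over Slc25a30, Slc25a27, Slc25a32, Slc25a36, Slc25a35 and Slc25a38, to Slc25a12 with 493, and tags past the end of a model would not be counted in it.

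In the table, 4 carriers overlap another gene. Slc25a2 lies over its whole length of 1346 bases in a protocadherin model on the opposite strand, and both list no read. Slc25a25 overlaps Naif1 on the opposite strand by 1014 bases, with 135 reads against 1. Slc25a35 overlaps Rangrf on the opposite strand by 29 bases at its 3′ end, with 64 reads against 0. Slc25a26 and Lrig1 overlap by 124 bases and list 1 read each. Slc25a29, listed at 0, lies 15.3 kb from Slc25a47, which had 1 read.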
